A study of Homo sapiens with 5 samples.

Results

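The genes described here are 10 ribosome biogenesis genes, chosen by Ensembl identifier from a fixed list of nucleolar factors, without a threshold on their measured values. The members are NCL (ENSG00000115053), NOLC1 (ENSG00000166197), NOP56 (ENSG00000101361), NOP58 (ENSG00000055044), DKC1 (ENSG00000130826), POLR1A (ENSG00000068654), POLR1B (ENSG00000125630), PES1 (ENSG00000100029), WDR12 (ENSG00000138442) and WDR43 (ENSG00000163811). They are 10 of the 20001 genes with an identifier in the count table, and all 10 passed the filter on low counts that left 13400 genes for testing. Nascent transcription was measured by PRO-seq, in which polymerases caught on the DNA extend their RNA with biotinylated nucleotides, so that reads report transcription in progress. The cells were HEK293T, a human embryonic kidney cell line expressing SV40 large T antigen, and every library came from a monoclonal derivative carrying a landing pad for inserted constructs. This pad held the CAG promoter, a strong synthetic promoter, in 3 libraries and the PGK promoter, taken from a glycolytic housekeeping gene, in 2 libraries. How many clones stood for each promoter is not in the labels, so promoter and clone cannot be told apart here, and it is not stated that replicates were separate cultures. The p-values thus cover the spread among these libraries, part or all of which may be technical. The libraries were collected for estimates of RNA stability in combination with RNA-seq, which was not used here.

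Ribosomes are assembled largely in the nucleolus. There RNA polymerase I transcribes the long precursor of the ribosomal RNAs, small nucleolar RNPs modify and help fold it, the small subunit processome forms on its 5′ part, and further complexes cut and pack the large subunit. The small nucleolar RNAs (snoRNAs) of these RNPs are of a box C/D class, which guides methylation of the ribose, and a box H/ACA class, which guides the change of uridine to pseudouridine. In human cells most snoRNAs lie in introns of other genes and are released as the intron is processed, and several of those host genes themselves encode ribosome biogenesis factors.

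The annotation was searched for snoRNAs within the bounds of the 10 genes, without a check of strand or of introns. In RefSeq (GRCh38.p14), 5 of the 10 had at least 1 snoRNA within their bounds, which was the case for 526 of 20052 protein-coding genes (2.62%). NOP56 had 5, with SNORD56, SNORD57, SNORD86 and SNORD110 of the box C/D class and SNORA51 of the box H/ACA class. NOP58 had 4, all of the box C/D class. NCL had 3, of which 2 were box C/D and 1 was box H/ACA, and WDR43 had 3 of the box C/D class. DKC1 had 2, both of the box H/ACA class. The other 5 genes, NOLC1, POLR1A, POLR1B, PES1 and WDR12, had 0. NOP56 and DKC1 each also had 1 microRNA gene within their bounds. By chromosome, 6 of the 10 genes (NCL, NOP58, POLR1A, POLR1B, WDR12 and WDR43) lie on chromosome 2, and the others lie on chromosomes 10 (NOLC1), 20 (NOP56), 22 (PES1) and X (DKC1).

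The mature sequences of those microRNAs are given because they are small RNAs encoded inside 2 of the genes described. They are from RefSeq (GRCh38.p14), read 5′ to 3′, with the seed (bases 2 to 8) in capitals. The 4 seeds differ from each other, and the count table gives the host gene a single value, so no level of the microRNA itself was measured here.
hsa-miR-1292-5p, within NOP56: uGGGAACGgguuccggcagacgcug
hsa-miR-1292-3p, within NOP56: uCGCGCCCcggcucccguuc
hsa-miR-664b-5p, within DKC1: uGGGCUAAgggagaugauugggua
hsa-miR-664b-3p, within DKC1: uUCAUUUGccucccagccuaca

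Promoter sequences were matched by symbol for 8 of the 10 genes in the RefSeq table of windows from 250 bases before to 50 bases after the start site. NOP58 and NOLC1 had no window there and could not be searched. The E-box CACGTG, the core site of MYC and other bHLH factors and identical on both strands, was found in WDR43 and PES1 of the 8. It was found in 8.34% of the 22198 windows of protein-coding genes, which covered 15842 genes. The CCAAT box, searched as CCAAT on both strands, was found in NCL, NOP56 and PES1, and in 34.7% of those windows. Both percentages are shares of windows, of which a gene can have several, whereas the genes described were counted by gene. Shares by gene were not taken, so the counts and percentages are not in the same unit. A few such stretches are shown as examples, and a match of letters is a description and not evidence of binding. The CCAAT stretch of PES1 and another one of NCL are not shown. Motif letters are in capitals, and ATTGG is CCAAT read on the other strand. The WDR43 stretch is at chr2:28894658-28894687 on the plus strand, the PES1 stretch at chr22:30591880-30591909 on the minus strand, the NCL stretch at chr2:231464577-231464605 on the minus strand and the NOP56 stretch at chr20:2652554-2652582 on the plus strand (GRCh38.p14).
WDR43, E-box: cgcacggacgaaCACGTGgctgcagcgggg
PES1, E-box: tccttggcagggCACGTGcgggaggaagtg
NCL, CCAAT box: tagaggctcgcgATTGGctcatggggacg
NOP56, CCAAT box: ccccggcctccgATTGGtcgggggggcgg

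The libraries held 4873883, 5003130 and 5864157 counts in the CAG line and 5582070 and 3712105 counts in the PGK line, so PGK replicate 2 was the shallowest. The 10 genes had 377 to 4141 counts each per library, at which counting error alone is 5.15% to 1.55%. Levels are in CPM, the count divided by the library size after TMM scaling, and are compared between libraries within a gene only, because the counted part of each gene, and so its length, is not given in the sources used here. The labelled cell type could not be set against markers, since the table pairs no identifier with a gene name.

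Of the 10 genes, 7 were lower in the CAG line than in the PGK line by edgeR's quasi-likelihood test at a Benjamini-Hochberg adjusted p under 0.05, and 0 were higher. Of all 13400 tested genes, 43.4% were called, 20.7% as lower and 22.7% as higher. The 7 were NOP56, NCL, NOP58 and WDR43, with log2 fold changes of -0.99 to -0.46, and WDR12, POLR1A and PES1, with log2 fold changes of -0.20 to -0.18. NOLC1, POLR1B and DKC1 did not pass. In these bulk libraries, a lower level in every cell and fewer cells transcribing a gene cannot be told apart. The median log2 fold change was -0.19 over the 10 genes and -0.0046 over all tested genes. In 5 of the 10 (NCL, POLR1A, WDR12, WDR43 and PES1) every CAG library lay below both PGK libraries, as was the case for 30.4% of all tested genes.

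The 7 calls did not rest on the same libraries. Without PGK replicate 2, 4 genes were called lower in the CAG line, against 18.6% of the 13661 genes then tested, and they were NCL, NOLC1, POLR1A and PES1. NOP56, NOP58, WDR43 and WDR12 were no longer called. Without PGK replicate 1, 6 genes were called lower (NCL, NOP56, NOP58, DKC1, WDR12 and WDR43), against 21.2% of 13598 genes. Each of these 2 leave-out fits has a single PGK library, which is assumed to vary as the CAG libraries do. DESeq2 on all 5 libraries, with both PGK libraries, called 1 gene lower, NCL, against 13.8% of the 13400. The values of each gene are therefore given by library.

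**Figure D1:**
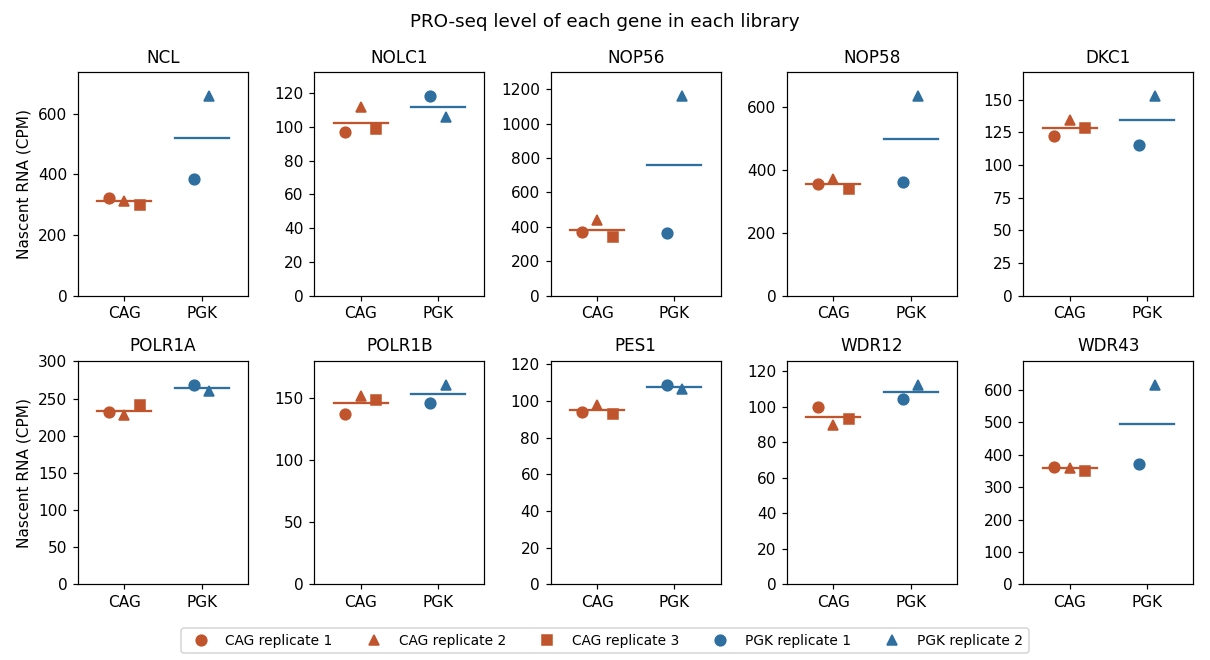
Level of each of the 10 genes (CPM, linear axes from 0) in the 3 CAG libraries and the 2 PGK libraries, with each point a library and each line the mean of its group. PGK replicate 2 stands far above the other libraries for NCL, NOP56, NOP58 and WDR43, with 1161 CPM for NOP56 as the highest value. The points of the other genes lie closer together, with DKC1 at 115 and 153 CPM in the PGK libraries.

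Among the box C/D proteins, NOP56 is a core protein of every box C/D RNP, bound between the catalytic subunit fibrillarin and the guide RNA. It had 368, 437 and 340 CPM in the CAG libraries, against 363 and 1161 CPM in the PGK libraries. PGK replicate 1 thus lay inside the CAG range, and PGK replicate 2 was 2.66-fold above the highest of the other 4 libraries. The means were 381 ± 50.1 CPM in the CAG line (SD, n = 3) and 762 ± 564 CPM in the PGK line (SD, n = 2). CAG over PGK gave a log2 fold change of -0.99 ± 0.22 (SE, edgeR adjusted p = 0.000796), and the groups overlapped. Without PGK replicate 2 the log2 fold change was 0.072 (edgeR adjusted p = 0.447), and DESeq2 on all 5 libraries gave an adjusted p of 0.191.

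NOP58, the paralogue of NOP56 in the same RNP, likewise had its highest level in PGK replicate 2, by a smaller factor. It had 355, 371 and 341 CPM in the CAG libraries, against 361 and 636 CPM in the PGK libraries. PGK replicate 1 again lay inside the CAG range. The log2 fold change was -0.48 ± 0.13 (SE, edgeR adjusted p = 0.00347) with all libraries and -0.019 without PGK replicate 2 (edgeR adjusted p = 0.848). By DESeq2 the adjusted p was 0.223.

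The ratio of the 2 paralogues varied mainly in 1 library. The log2 difference NOP56 minus NOP58, in log2 CPM, was 0.052, 0.24 and -0.0043 in the CAG libraries, against 0.0099 and 0.87 in the PGK libraries. PGK replicate 2 was again the highest. The line means differed by -0.34, or by 0.085 without PGK replicate 2, and an exact two-sided permutation test over the libraries gave p = 0.6 (adjusted p = 0.8 over 4 pairs of genes tested), where 3 against 2 libraries cannot go below 0.2.

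DKC1, dyskerin, is the pseudouridine synthase of box H/ACA RNPs and also a part of telomerase. It had 122, 134 and 128 CPM in the CAG libraries, against 115 and 153 CPM in the PGK libraries. The PGK libraries lay on either side of all CAG libraries. DKC1 had a log2 fold change of -0.044 ± 0.087 (SE, edgeR adjusted p = 0.720). It was 0.16 without PGK replicate 2 and -0.26 without PGK replicate 1, so its direction depended on which single PGK library was used.

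Among the nucleolar scaffold proteins, NCL encodes nucleolin, an abundant RNA-binding protein of the nucleolus that acts in ribosomal RNA transcription and processing. It had 324, 312 and 298 CPM in the CAG libraries, against 384 and 659 CPM in the PGK libraries. Both PGK libraries lay above every CAG library, and they also lay far from each other. On the log2 scale CAG over PGK was -0.74 ± 0.12 (SE, edgeR adjusted p = 2.78e-05). NCL was the 1 gene of the 10 called in every one of the 12 alternative settings. By DESeq2 the adjusted p was 0.0347. Its size depended on the library: -0.30 without PGK replicate 2 and -1.09 without PGK replicate 1. Each of these leave-out fits has a single PGK library, so no spread within the PGK line enters it.

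NOLC1 encodes a phosphoprotein, also known as Nopp140, that associates with snoRNPs and shuttles between the nucleolus and Cajal bodies. It had 97.0, 112 and 98.7 CPM in the CAG libraries, against 118 and 106 CPM in the PGK libraries. CAG replicate 2 lay between the PGK libraries. NOLC1 had a log2 fold change of -0.14 ± 0.078 (SE, edgeR adjusted p = 0.152). Without PGK replicate 2, which leaves a single PGK library, it was -0.21. NCL minus NOLC1 was 1.73, 1.48 and 1.59 in log2 CPM in the CAG libraries, against 1.69 and 2.64 in the PGK libraries. PGK replicate 1 lay inside the CAG range of this ratio (difference of line means -0.56, or -0.090 without PGK replicate 2, exact two-sided permutation p = 0.4, adjusted p = 0.8).

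WDR43, the human UTP5, is a protein of the subcomplex of the small subunit processome that joins the precursor during transcription. It had 362, 361 and 351 CPM in the CAG libraries, against 371 and 617 CPM in the PGK libraries. The groups did not overlap, but PGK replicate 1 lay only 0.036 above the highest CAG library on the log2 scale. The log2 fold change was -0.46 ± 0.12 (SE, edgeR adjusted p = 0.00272), against -0.051 without PGK replicate 2 (edgeR adjusted p = 0.569). By DESeq2 the adjusted p was 0.186.

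**Figure D2:**
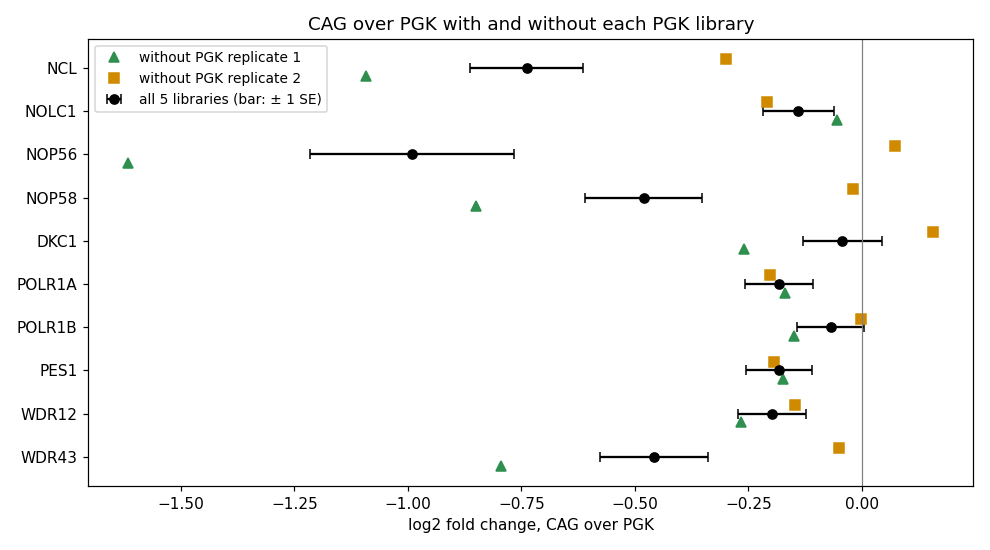
Log2 fold change of CAG over PGK for each gene with all 5 libraries (points, bars 1 SE) and with either PGK library left out. NOP56, NOP58 and WDR43 stand between -0.99 and -0.46 with all libraries and between -0.051 and 0.072 without PGK replicate 2, whereas POLR1A and PES1 hardly move.

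The large subunit of RNA polymerase I, encoded by POLR1A, was slightly lower in the CAG line. It had 231, 228 and 241 CPM in the CAG libraries, against 269 and 261 CPM in the PGK libraries, with no overlap. Its log2 fold change was -0.18 ± 0.074 (SE, edgeR adjusted p = 0.0479), which lay close to the threshold: it passed in 3 of 12 alternative settings, with sizes of -0.21 to -0.16. POLR1B, the second largest subunit, had 137, 151 and 148 CPM in the CAG libraries, against 146 and 160 CPM in the PGK libraries, and the groups overlapped. Its log2 fold change was -0.069 ± 0.073 (SE, edgeR adjusted p = 0.474).

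The ratio of these subunits varied as much between replicates as between lines. POLR1A minus POLR1B was 0.75, 0.59 and 0.70 in log2 CPM in the CAG libraries, against 0.88 and 0.70 in the PGK libraries. The difference of the line means was -0.11 (exact two-sided permutation p = 0.6, adjusted p = 0.8).

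PES1 and WDR12 encode subunits of the PeBoW complex, which is required for the maturation of the large subunit RNAs. PES1 had 94.2, 97.9 and 93.1 CPM in the CAG libraries, against 109 and 107 CPM in the PGK libraries. Its groups did not overlap and both were tight, with means of 95.0 ± 2.52 CPM in the CAG line (SD, n = 3) and 108 ± 1.64 CPM in the PGK line (SD, n = 2). The log2 fold change was -0.18 ± 0.072 (SE, edgeR adjusted p = 0.0416), and it passed in 4 of 12 alternative settings.

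WDR12 had 99.7, 89.8 and 93.1 CPM in the CAG libraries, against 104 and 112 CPM in the PGK libraries. Its groups did not overlap, and its log2 fold change was -0.20 ± 0.075 (SE, edgeR adjusted p = 0.0346), which passed in 6 of 12 alternative settings. For POLR1A, PES1 and WDR12 the direction was the same in all 12 settings, as it was for every gene described except NOP56 and DKC1. Since the groups of these genes did not overlap, leaving out a library could hardly turn their sign. PES1 minus WDR12 was -0.081, 0.12 and 0.00 in log2 CPM in the CAG libraries, against 0.060 and -0.077 in the PGK libraries. This ratio did not separate the lines (difference 0.023, exact two-sided permutation p = 1.0).

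The difference between the 2 PGK libraries was larger in each gene with snoRNAs within its bounds than in any gene without. PGK replicate 2 minus PGK replicate 1, in log2 CPM, was 1.68 for NOP56, 0.82 for NOP58, 0.78 for NCL and 0.73 for WDR43, the 4 genes with box C/D snoRNAs within their bounds. It was 0.41 for DKC1, which has box H/ACA snoRNAs alone. In the 5 genes with 0 snoRNAs it lay between -0.16 (NOLC1) and 0.14 (POLR1B). Over all tested genes the median of this difference was 0.0089 and its SD 0.33. Only 8 of the 13400 genes had a larger value than NOP56, and 106, 126 and 150 had a larger value than NOP58, NCL and WDR43. The 4 genes with box C/D snoRNAs also had the highest mean CPM of the genes described, without correction for gene length. In the CAG line their means ran from 311 (NCL) to 381 (NOP56), against 233 for POLR1A, the next, and 128 for DKC1. Their split from the other genes thus followed CPM as well as snoRNA class, and the 2 were not told apart by a test. NCL and NOP56 also hold 1 box H/ACA snoRNA each, so the contrast of classes rests on DKC1.

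The grouping by snoRNAs was made after the values had been seen and has no test. Other snoRNA host genes were not examined. Whether reads of the snoRNAs themselves were counted within their host genes was not tested, since a host gene has a single count in each library. Neither the strand setting nor the counted part of the gene is given in the sources used here.

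**Figure D3:**
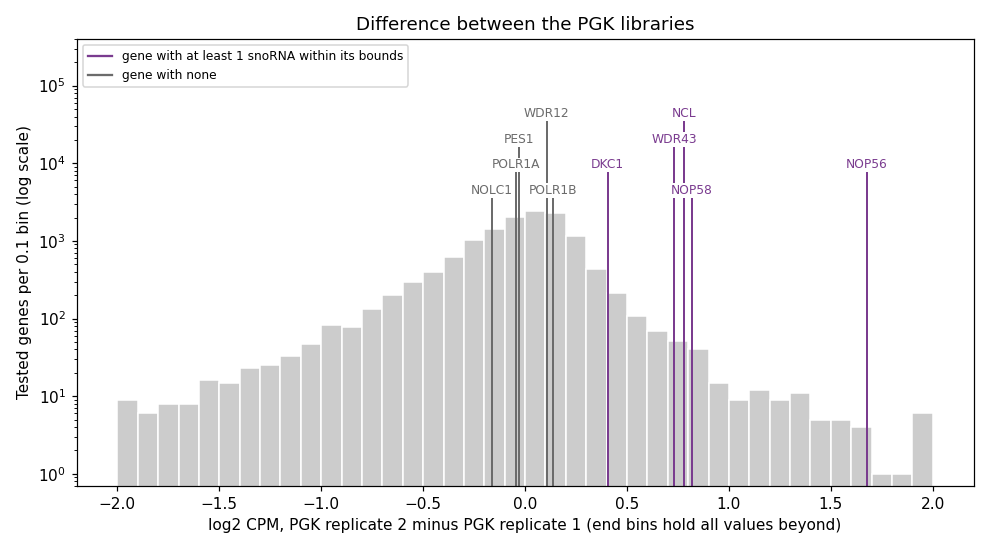
Tested genes by the difference between the PGK libraries in log2 CPM (grey bars, log scale, end bins holding all values beyond), with the 10 genes as vertical lines of no fixed height. The 5 genes with snoRNAs lie between 0.41 and 1.68 and the 5 without lie between -0.16 and 0.14.

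The same library was set against all others. Of the 13400 genes, 69 (0.515%) stood at least 1.5-fold above the other 4 libraries in PGK replicate 2, and NOP56, NOP58, NCL and WDR43 were 4 of them. In PGK replicate 1 there were 45 such genes, and in the CAG libraries 16 to 23, with 0 of the 10 genes among them. PGK replicate 2 also stood at least 1.5-fold below the others for 525 genes, against 146 in PGK replicate 1 and 34 to 42 in the CAG libraries, and 0 of the 10 were among these.

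As shares of the library, the 5 genes with snoRNAs held 0.154%, 0.163% and 0.146% of counts in the CAG libraries, against 0.161% and 0.310% in the PGK libraries. PGK replicate 1 lay inside the CAG range. The 5 genes without snoRNAs held 0.0665%, 0.0685% and 0.0675% in the CAG libraries, against 0.0754% and 0.0717% in the PGK libraries. Here both PGK libraries lay above all CAG libraries and close to each other. This holds for the summed share, since NOLC1 and POLR1B taken singly overlapped between the lines, whereas POLR1A, PES1 and WDR12 did not. Of all tested genes taken singly, 30.4% had every CAG library below both PGK libraries. The grouping was made after the values had been seen.

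**Figure D4:**
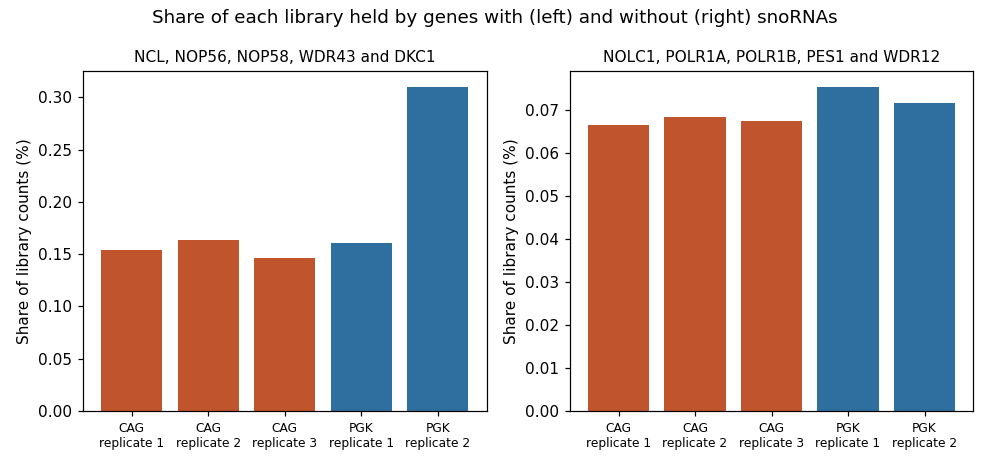
Share of library counts held by the 5 genes with snoRNAs (left) and the 5 without (right), with 1 bar per library and axes of different range that start at 0. The left panel has 0.310% in PGK replicate 2 and at most 0.163% elsewhere, and in the right panel both PGK libraries are above all CAG libraries. Taken singly, 30.4% of all tested genes had every CAG library below both PGK libraries.

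Within the CAG line 8 of the 10 genes had a smaller spread than the median gene. That median is over all tested genes, including those with few counts, whereas the 10 had 377 to 4141 counts per library. Genes were not matched for depth, so the smaller spread is not shown to be particular to the 10. The SD of log2 CPM over the CAG libraries was 0.024 for WDR43, 0.038 for PES1 and 0.042 for POLR1A, against a median of 0.087 over all tested genes. NOLC1, with 0.11, and NOP56, with 0.19, were above that median, and in both CAG replicate 2 was the highest CAG library.

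Each gene was also set against its neighbours in the row order of the table, because fold changes of adjacent tested rows were correlated across genes (Pearson's r = 0.243, a description over 13399 pairs of rows). For each gene the median log2 fold change of the 10 tested rows on either side was taken. These medians lay between -0.092 and 0.017 for 9 of the 10 genes. With 20 rows on either side, the median around NOLC1 was -0.20 and that around POLR1B -0.15. DKC1 was the exception, with a neighbour median of 0.23 and 8 of 20 neighbours called higher in the CAG line, and DKC1 itself was 0.28 below that median.

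In the fit with all 5 libraries, NCL, NOP56 and NOP58 were lower than every one of their 20 neighbours. NCL stood at -0.74 relative to its neighbour median, NOP56 at -0.92 and NOP58 at -0.45. WDR43 stood at -0.48, with 3 of 20 neighbours lower than it. The smaller differences of PES1 (-0.19), POLR1A (-0.14) and WDR12 (-0.13) had the same sign relative to their neighbours, and NOLC1 and POLR1B differed from theirs by -0.048 and -0.010. Without PGK replicate 2 the genes' own log2 fold changes were -0.30 (NCL), 0.072 (NOP56), -0.019 (NOP58) and -0.051 (WDR43). The neighbour medians were not taken again without that library, so the distances given here include it. NOP58 and WDR12 are on rows 3027 and 3031, and each is among the neighbours of the other, yet PGK replicate 2 minus replicate 1 was 0.82 in NOP58 and 0.11 in WDR12.

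The row neighbours of NCL, NOP56 and WDR43 all had a smaller difference between the PGK libraries than the gene itself, and at least 1 neighbour of NOP58 had a larger one. The median difference of the 20 neighbours, in log2 CPM, was 0.011 around NCL, -0.14 around NOP56, 0.20 around NOP58 and 0.029 around WDR43. The highest single neighbour reached 0.35 around NCL and WDR43, 0.78 around NOP56 and 1.18 around NOP58, where the gene itself had 0.82.

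**Figure D5:**
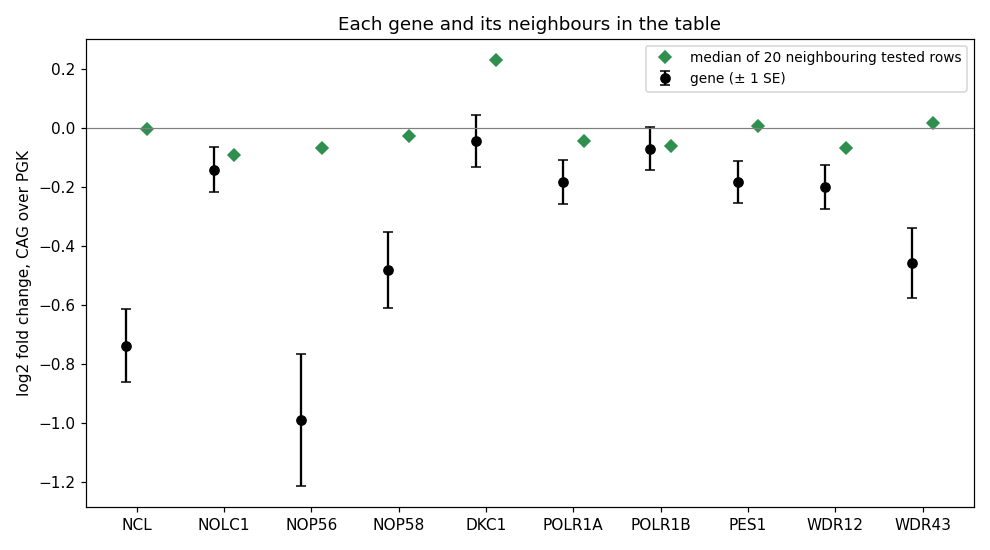
Log2 fold change of CAG over PGK for each gene (points, bars 1 SE) beside the median of its 20 neighbouring tested rows (diamonds). The diamonds lie between -0.092 and 0.017 except at DKC1 (0.23), and NOP56, NCL, NOP58 and WDR43 lie furthest below theirs. All 5 libraries were used. Without PGK replicate 2, not shown here, NOP56, NOP58 and WDR43 themselves stood between -0.051 and 0.072.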

How the data were processed

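Each deposited value is a raw count for 1 Ensembl gene in 1 library. The submitters' processing notes name featureCounts 2.0.3, HISAT2 2.2.1, Bowtie2 2.5.1, fastp 0.23.2, UMI-tools and cutadapt, with the hg19 build. What each tool did is not stated, and neither annotation nor strand setting is given in the sources used here. All 5 columns were matched to samples by description, and groups came from titles. Of 20019 rows, 18 without an identifier (95 counts, at most 0.000448% of a library) were left out.

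Genes were kept by filterByExpr (edgeR 4.0.16, R 4.3.3, minimum count 10, minimum total 15), scaled by TMM and tested for CAG over PGK with edgeR's quasi-likelihood test and Benjamini-Hochberg adjustment over 13400 genes. Each SE was derived from the fold change and its F statistic (absolute log2 fold change divided by the root of F). Log2 CPM used a prior count of 2. On simulated counts for these 13400 genes, 87 of 100 changes of 1 (log2) and 69 of 100 of 0.5 were recovered, with 9 of 13200 unchanged genes called. The simulation gave both lines the same spread within a gene and let no library stand apart. It therefore does not cover calls that rest on PGK replicate 2. Within the lines, chi-square per degree of freedom between libraries was 1.63 to 1.83 (CAG) and 4.40 (PGK), above the value near 1 that counting noise alone gives, so all 5 were kept as separate libraries.

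All 10 genes were named by rule, and the members, lists and tests were chosen with earlier results of these data known. A wider list of 123 pathway genes, the complex partners and the cell type markers were not analysed here, because 0 rows of the RefSeq table carry an Ensembl identifier. Alternatives were DESeq2 1.42.0, limma-trend (limma 3.58.1), other scaling and filters, the replicate number as a block and leaving out each library.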

Additional observations from a re-analysis of the deposited data

How the results depend on the processing

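The count of 7 genes lower in the CAG line depended on the setting. It was 4 with upper-quartile factors, 4 with the replicate number as a block, 1 with DESeq2 (NCL), and 4 to 6 with 1 library left out. It was 6 or 7 with DESeq2 size factors, no filter, at least 1 CPM in every library and limma-trend. The count of 0 genes higher in the CAG line was the same in all 12 settings, and over all genes 4054 (DESeq2) to 6024 (no filter) were called, against 5818. Without PGK replicate 2 the sign turned for NOP56 (0.072) and DKC1 (0.16), neither called there. PGK replicate 1, then the only PGK library, had 363 CPM for NOP56, inside the CAG range. For DKC1 it had 115 CPM, below all CAG libraries. With 1 library left out, NOP56 ran from -1.62 to 0.072 and DKC1 from -0.26 to 0.16. The cause of the difference between the PGK libraries was not tested. Under the block, the genes called lower were NCL, NOP56, NOP58 and WDR43. Same-numbered libraries deviated with correlations of 0.038 and -0.068, and the number was not treated as a pairing. Relative to row neighbours, taking 20 rows on each side gave 0.062 for NOLC1 and 0.079 for POLR1B, and taking 5 gave -0.17 for DKC1 and -0.61 for WDR43. With 1 library left out, the difference of line means ran from -0.77 to 0.085 for NOP56 minus NOP58 and from -1.03 to -0.090 for NCL minus NOLC1, each from the value without PGK replicate 1 to that without PGK replicate 2. It ran from -0.20 to -0.018 for POLR1A minus POLR1B and from -0.045 to 0.092 for PES1 minus WDR12. The alternatives for the wider pathway list were not run, because its genes could not be matched to identifiers. Counting error of the 10 genes was at most 5.15% per library, and the PGK line had 2 libraries.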
